A study of Mus musculus with 52 samples.

Results

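Palmitic acid is the most common saturated fatty acid of animal fat, and the series, on lipid-laden reactive astrocytes in epilepsy, applied it to cultured astrocytes. The comparison described here sets 3 libraries of wild-type astrocytes treated with palmitic acid against 3 libraries of untreated wild-type astrocytes, 6 of the 52 samples of the series and 6 of its 27 libraries of cultured astrocytes. Members were taken by their labels, with no use of measured values. 3 libraries of wild-type astrocytes treated with oleic acid, a monounsaturated fatty acid of similar chain length, are set beside them, and so are 3 palmitic acid and 3 untreated libraries of astrocytes lacking Apoe, the gene of the main lipid carrier that astrocytes secrete. All groups are of the C57BL/6 strain. The sources used here state neither the dose, duration and carrier of the fatty acids nor the vehicle given to untreated cells, and likewise neither the age, sex and brain region of the animals nor the number of cultures and the kind of Apoe knockout. The third palmitic acid and the third untreated knockout library carry the word mix in their titles, which is not explained.

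Astrocytes take up fatty acids, store them as triglyceride in lipid droplets and oxidise them in mitochondria. Saturated fatty acids are harder to store than monounsaturated ones, and in many cell types they stiffen membranes of the endoplasmic reticulum. There the stress sensor PERK phosphorylates the translation factor eIF2 alpha, which raises translation of the transcription factor ATF4 and the genes it drives, a program known as the integrated stress response. Other sensors of the same organelle, IRE1 and ATF6, raise chaperones, the unfolded protein response. Saturated fatty acids are also known to engage inflammatory signalling through NF-kB in macrophages and glia.

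Expression was given as TPM, a share of all transcripts in a library after scaling by transcript length. Differences are of group means of log2(TPM + 1), with their standard error (SE), from a limma fit to all 27 astrocyte libraries, and this scale understates the change of genes near 1 TPM. A gene was called where its p-value, adjusted by Benjamini-Hochberg over the 16161 genes tested, was under 0.05. The deposited values hold no read counts, so the depth of each library is unknown. Between 13721 and 13839 genes reached 1 TPM in the palmitic acid libraries, against 14410 to 14553 in the untreated ones. The mitochondrial genes took 3.48% to 4.17% of all TPM in the palmitic acid libraries and 5.53% to 6.83% in the untreated libraries. The labels do not say that the 3 libraries of a group came from separate cultures, so a p-value here is set against variation among libraries that could be technical only.

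Most genes differed. Of the 16161 genes tested, 4325 were higher (26.8%) and 5343 lower (33.1%) in palmitic acid than in untreated astrocytes, 59.8% in either direction, with a median difference of -0.08 over all genes. The groups did not overlap, with palmitic acid libraries all higher, in 4905 genes (30.4%), and they were all lower in 6239 genes (38.6%). With a change of at least 2-fold also required, 993 genes were higher and 1731 lower. A count of members of a gene group is to be read against these shares.

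Genes linked to the sex of the source animals differed between the libraries. Eif2s3y, which lies on the Y chromosome, stood at 3.18, 3.51 and 2.94 TPM in the palmitic acid libraries, 2.91, 1.40 and 2.46 TPM in the oleic acid libraries, and 28.1, 27 and 31.7 TPM in the untreated libraries. Ddx3y, Kdm5d and Uty, also on the Y chromosome, were likewise lower in every palmitic acid library than in every untreated one. Xist, which is transcribed from the inactive X chromosome of females, was at 18.4, 21.0 and 15.5 TPM in palmitic acid, against 36.8, 30.7 and 36.3 TPM in untreated astrocytes, and it was detected beside the Y-linked genes in every library of these groups. These 5 genes were chosen after their values were seen.

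Genes of regional origin differed too. En2, a transcription factor of the midbrain and hindbrain, was at 7.52, 6.90 and 6.99 TPM in palmitic acid, 93.7, 92.6 and 99.1 TPM in oleic acid, and 1.05, 1.01 and 1.02 TPM in untreated astrocytes. En1, its relative, averaged 5.68 ± 0.161 TPM in palmitic acid, 16 ± 2.96 TPM in oleic acid and 0.347 ± 0.179 TPM in untreated astrocytes (SD, n = 3 libraries each). Of 30 measured transcription factors of brain regions 10 were higher and 13 lower in palmitic acid than in untreated cells, Irx1, Irx2 and Irx3 among the higher and Zic1, Zic2, Zic4 and Lhx2 among the lower. The imprinted growth genes were lower almost throughout, 19 of 20, led by the fetal growth factor Igf2 (15.7, 13.3 and 12.1 TPM in palmitic acid, against 148, 161 and 145 TPM in untreated) and its neighbour, the noncoding RNA H19 (40.7, 33.6 and 32.5 TPM, against 417, 445 and 397 TPM). The labels name no culture source, so what the treatment did and what the make-up of the cultures brought cannot be told apart for any gene below.

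**Figure D1:**
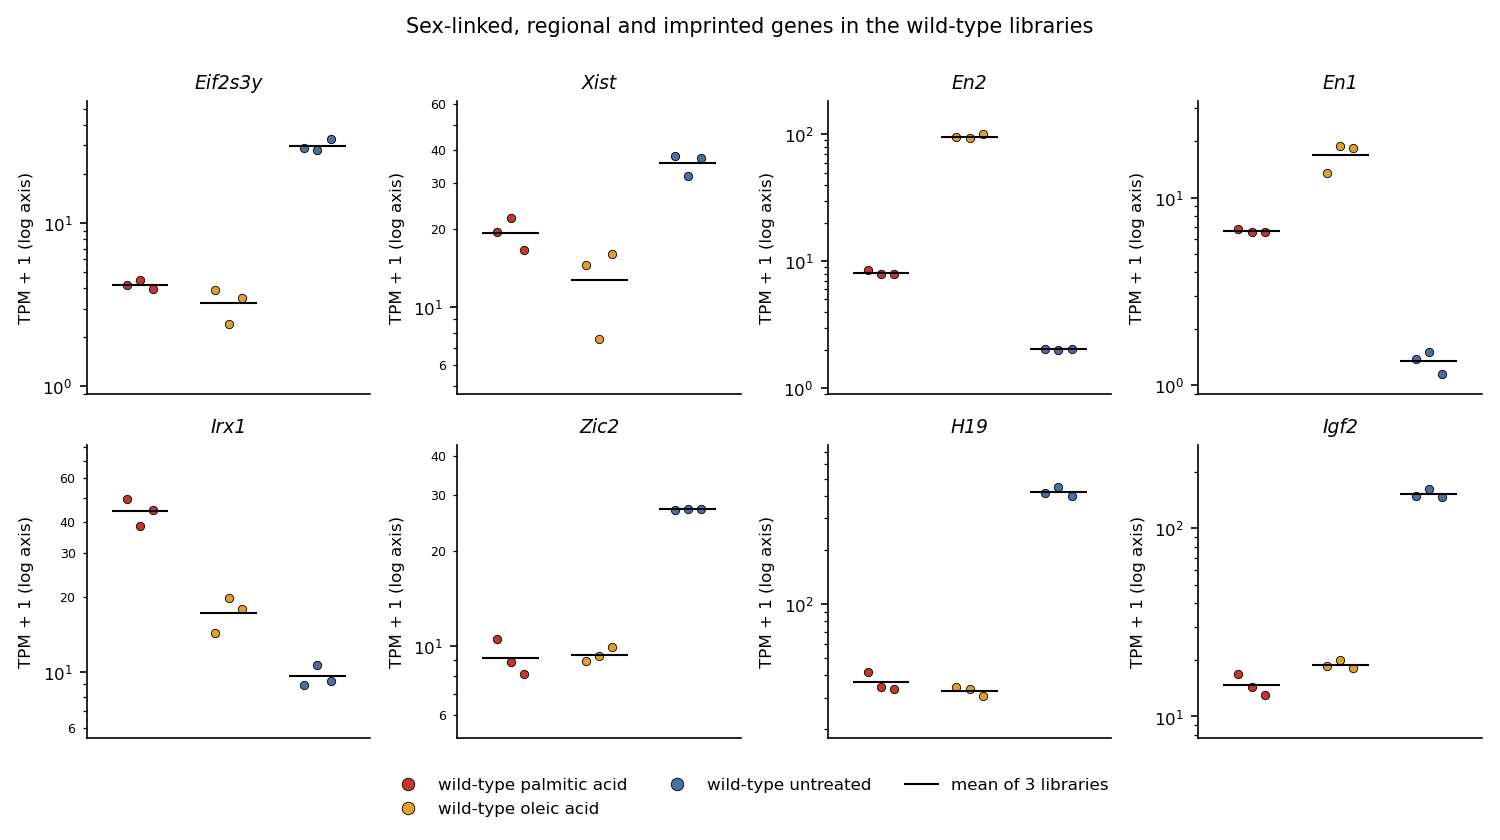
Level of 8 genes in each wild-type library, as TPM + 1 on a log axis, with palmitic acid, oleic acid and untreated libraries from left to right and a bar at the mean of 3 libraries. Eif2s3y lies near 3 TPM in the palmitic acid libraries and at 27 to 31.7 TPM in the untreated ones, En2 separates all 3 groups, and H19 and Igf2 are lower in both fatty acid groups.

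The integrated stress response rose almost as a whole. Of its 37 genes, all measured, 34 were higher in palmitic acid than in untreated astrocytes, 2 were lower and 1 did not pass, and the median difference was 2.20, beside -0.08 over all genes. Against oleic acid 34 were higher and 1 lower, with a median of 2.11, where 25.8% of all genes were higher and 32.4% lower. Atf4, the transcription factor at the head of the program, was at 837, 779 and 837 TPM in palmitic acid, 196, 184 and 185 TPM in oleic acid, and 114, 121 and 110.5 TPM in untreated astrocytes. The 3 groups did not overlap, and the difference from untreated was 2.82 ± 0.06 (SE, adjusted p = 2.44e-19).

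The list holds genes of cell death and feedback that ATF4 drives. Ddit3, which encodes the proapoptotic factor CHOP, was at 521, 507 and 538 TPM in palmitic acid, 64.9, 64.3 and 61.8 TPM in oleic acid, and 38.3, 44.5 and 36.1 TPM in untreated cells. Trib3, a pseudokinase that restrains ATF4 and AKT, stood at 129.8, 121 and 127 TPM in palmitic acid, 7.62, 7.83 and 5.78 TPM in oleic acid, and 3.41, 4.58 and 4.80 TPM in untreated cells. Chac1, which degrades glutathione, had 133, 122 and 132 TPM in palmitic acid, 26.9, 23.5 and 22.3 TPM in oleic acid, and 5.71, 4.36 and 4.72 TPM in untreated cells. Every palmitic acid library was above every library of both other groups for these 3 genes. The differences from untreated were 3.69 ± 0.08 for Ddit3 (SE, adjusted p = 5.50e-19), 4.60 ± 0.17 for Trib3 (adjusted p = 1.27e-15) and 4.46 ± 0.13 for Chac1 (adjusted p = 3.52e-17). Atf3, a stress-induced repressor, rose by 4.03 ± 0.13 (SE, adjusted p = 2.14e-16), and Ppp1r15a, whose product GADD34 reverses eIF2 alpha phosphorylation, by 3.28 ± 0.08 (adjusted p = 1.57e-18).

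It also holds enzymes and transporters of amino acid metabolism, of which those named here were chosen after their values were seen. Asns, which makes asparagine, was at 305, 302 and 325 TPM in palmitic acid, 40.6, 42.2 and 38.5 TPM in oleic acid, and 30.6, 30.5 and 28.5 TPM in untreated astrocytes, a difference from untreated of 3.34 ± 0.06 (SE, adjusted p = 4.56e-20). The cystine importer Slc7a11 rose by 3.27 ± 0.27 (SE, adjusted p = 8.81e-10), the mitochondrial folate enzymes Shmt2 and Mthfd2 by 2.56 and 2.53, and the serine synthesis enzymes Phgdh, Psat1 and Psph by 1.43, 1.07 and 2.34. Gdf15, a secreted hormone of stressed cells, was at 143, 139 and 147 TPM in palmitic acid, 9.23, 11.4 and 11.1 TPM in oleic acid, and 18.2, 20.3 and 17.7 TPM in untreated cells. Its level in oleic acid was below that in untreated cells in every library, and in palmitic acid above both. The 2 members that fell were Ddit4, an inhibitor of mTORC1, by 1.16, and Cbs, the first enzyme of transsulfuration, by 0.78. Fgf21, a hormone, had 0.97 to 1.48 TPM in palmitic acid and 0.57 to 0.94 TPM in untreated libraries and did not pass.

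The transfer RNA synthetases of the cytosol, which load amino acids and are ATF4 targets in part, followed. Of 20, 18 were higher, none was lower and 2 did not pass, with a median of 1.63 against untreated. Gars, the glycine enzyme, was at 285, 289 and 289 TPM in palmitic acid, 84.8, 82.5 and 84.7 TPM in oleic acid, and 71.5, 70.0 and 70.2 TPM in untreated cells, with no overlap. Wars, Aars and Sars rose by 1.91, 1.80 and 1.77. Dars and Qars averaged 95.3 and 114 TPM in palmitic acid, against 122 and 106 TPM in untreated cells, and did not pass.

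**Figure D2:**
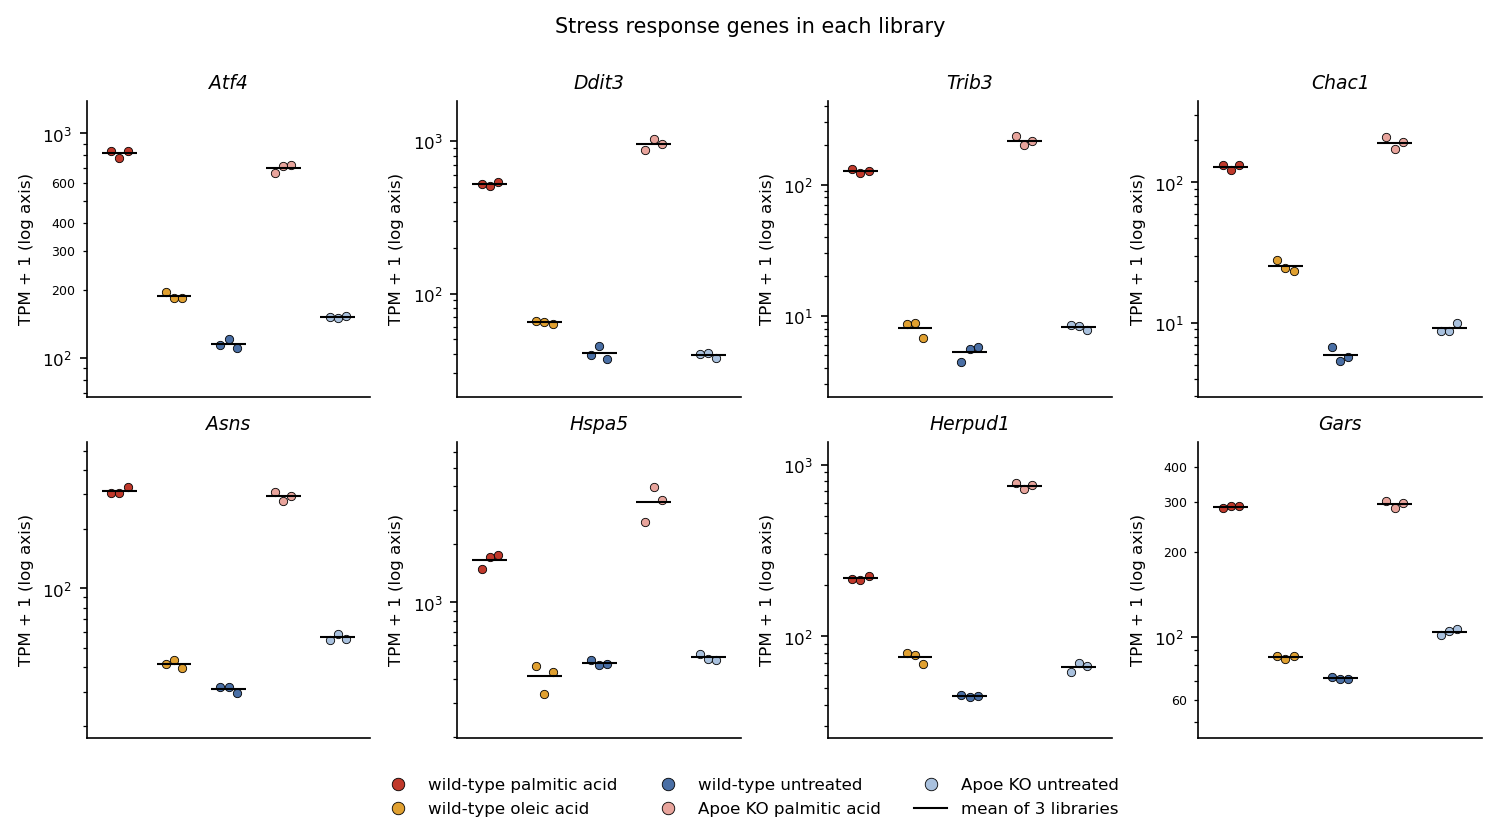
Level of 8 stress response genes in each library, as TPM + 1 on a log axis, with wild-type palmitic acid, oleic acid and untreated libraries and then Apoe knockout palmitic acid and untreated libraries from left to right, and a bar at the mean of 3 libraries. The palmitic acid libraries of both genotypes lie above the others in each panel, as for Atf4 with 779 to 837 TPM in palmitic acid and 110.5 to 121 TPM in untreated wild-type cells.

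The unfolded protein response moved the same way by a smaller amount. Of its 27 genes 22 were higher, 2 lower and 3 did not pass, with a median of 0.84. Hspa5, the chaperone BiP of the endoplasmic reticulum, was at 1496, 1726 and 1761 TPM in palmitic acid, 466, 335 and 437 TPM in oleic acid, and 505, 475 and 478 TPM in untreated astrocytes. The oleic acid libraries lay below the untreated ones and the palmitic acid libraries well above both, 1.77 ± 0.12 over untreated (SE, adjusted p = 2.19e-11). Xbp1, which IRE1 splices, was at 159.8, 174 and 180.4 TPM in palmitic acid, against 40.5, 39.7 and 42.5 TPM in untreated cells (2.04 ± 0.06, adjusted p = 5.03e-17). Herpud1, a part of the machinery that returns misfolded proteins for degradation, rose by 2.27 ± 0.07 (SE, adjusted p = 5.11e-17), and the chaperones Creld2 and Sdf2l1 by 2.02 and 2.46. Derl3, of the same degradation channel, had 25.3, 38.1 and 40.4 TPM in palmitic acid and 0.73, 0.90 and 0.93 TPM in untreated cells. The lectin chaperone Canx and the growth factor Cdnf fell by 0.47 and 0.71, and Hsp90b1, Dnajc3 and Pdia3 did not pass. With a 2-fold change also required, 10 of the 22 remained counted as higher.

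The promoters of these genes were searched for the letters of response elements on both strands, from 250 bases before to 50 after the transcription start, since members of both groups moved together. The amino acid response element bound by ATF4, written TGATGNAA, was found in 2.26% of the 11563 promoters of tested genes with a RefSeq sequence. It was found in 9 of the 32 integrated stress response genes with a sequence (28.1%), namely Asns, Atf3, Chac1, Fgf21, Got1, Nupr1, Pycr1, Slc7a11 and Trib3, and in 5 of 13 transfer RNA synthetases (38.5%). The endoplasmic reticulum stress element, a CCAAT box spaced from a CCACG box, was found in 0.173% of all promoters and in 9 of 23 unfolded protein response genes (39.1%), Hspa5 among them. The kappa B motif of NF-kB was found in 1.63% of all promoters and in 8 of 22 NF-kB target genes (36.4%). Most of the other motifs among the 11 searched were in few or no members. Of the 19 immediate early genes with a sequence, none held the AP-1 site TGANTCA (5.09% of all promoters) or the serum response element core (1.48%), and 2, Btg2 and Dusp1, held the cAMP response element TGACGTCA (3.17%). The antioxidant response element was in none of 24 antioxidant and metallothionein genes, against 2.68% of all promoters, and the PPAR response element in none of 12 PPAR targets, against 2.37%. A stricter kappa B motif was in 5 of 22 NF-kB targets (22.7%) and in 0.381% of all promoters. The motifs were chosen with the expression values known. The lists were themselves built from known targets, and a match of letters is no evidence of binding. The promoters of 5 genes with large changes are printed 5′ to 3′ on the strand of the gene, from RefSeq on GRCm38.p6, with the matches in capitals. None of the matches shown overlapped a match of another of the amino acid, stress element, NF-kB, AP-1 or TCACNCCAC sterol motifs. Overlap with the other motifs searched was not checked. The second Cxcl1 match also has the letters of the stricter kappa B motif. Trib3 lies on the minus strand at chr2:152344011-152344310, Chac1 on the plus strand at chr2:119350992-119351291, Asns on the minus strand at chr6:7693160-7693459, Hspa5 on the plus strand at chr2:34771840-34772139 and Cxcl1, described next, on the plus strand at chr5:90890995-90891294. Capitals mark the amino acid response element in the first 3, the stress element in Hspa5 and 2 NF-kB matches in Cxcl1.
Trib3: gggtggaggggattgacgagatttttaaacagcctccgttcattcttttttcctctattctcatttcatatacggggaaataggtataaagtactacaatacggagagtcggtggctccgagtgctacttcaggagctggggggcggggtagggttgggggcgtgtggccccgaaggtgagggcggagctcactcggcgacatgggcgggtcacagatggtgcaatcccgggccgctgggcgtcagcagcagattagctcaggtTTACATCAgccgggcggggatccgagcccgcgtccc
Chac1: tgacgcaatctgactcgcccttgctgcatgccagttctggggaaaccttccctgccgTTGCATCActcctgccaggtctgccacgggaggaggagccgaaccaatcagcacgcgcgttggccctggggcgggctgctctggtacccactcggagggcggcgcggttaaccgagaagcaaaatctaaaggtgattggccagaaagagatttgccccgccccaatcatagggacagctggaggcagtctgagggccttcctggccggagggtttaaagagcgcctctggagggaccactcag
Asns: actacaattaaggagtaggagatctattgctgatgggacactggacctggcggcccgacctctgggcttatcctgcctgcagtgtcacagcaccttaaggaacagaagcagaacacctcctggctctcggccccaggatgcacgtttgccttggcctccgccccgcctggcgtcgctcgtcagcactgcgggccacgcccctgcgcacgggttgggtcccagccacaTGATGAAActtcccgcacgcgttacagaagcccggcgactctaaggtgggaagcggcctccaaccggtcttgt
Hspa5: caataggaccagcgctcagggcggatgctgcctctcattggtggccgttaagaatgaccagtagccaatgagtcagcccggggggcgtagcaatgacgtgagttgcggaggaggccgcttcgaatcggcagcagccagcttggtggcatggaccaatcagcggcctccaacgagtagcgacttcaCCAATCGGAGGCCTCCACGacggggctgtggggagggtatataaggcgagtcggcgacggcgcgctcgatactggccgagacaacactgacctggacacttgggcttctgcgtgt
Cxcl1: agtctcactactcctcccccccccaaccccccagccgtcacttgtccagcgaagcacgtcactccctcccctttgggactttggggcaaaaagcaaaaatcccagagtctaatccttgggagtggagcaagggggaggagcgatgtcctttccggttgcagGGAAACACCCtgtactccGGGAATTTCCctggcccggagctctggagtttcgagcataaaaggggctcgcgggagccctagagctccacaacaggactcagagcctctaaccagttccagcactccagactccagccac

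Inflammatory genes rose as well. Of 29 measured NF-kB targets, chemokines and cytokines 26 were higher in palmitic acid than in untreated astrocytes, none was lower and 3 did not pass, with a median of 1.73. Against oleic acid 23 were higher and 2 lower. Cxcl1, a chemokine that attracts neutrophils, was at 41.8, 51.8 and 87.7 TPM in palmitic acid, 0.09, 0.19 and 0.37 TPM in oleic acid, and 0.42, 0.60 and 0.11 TPM in untreated astrocytes. Ccl2, which attracts monocytes, was at 113, 140.4 and 199.8 TPM in palmitic acid, 3.65, 3.74 and 2.09 TPM in oleic acid, and 4.15, 6.00 and 3.71 TPM in untreated cells. All palmitic acid libraries lay far above all others for both, and the third was the highest for each. The differences from untreated were 5.43 ± 0.64 for Cxcl1 (SE, adjusted p = 2.08e-07) and 4.74 ± 0.66 for Ccl2 (adjusted p = 2.13e-06).

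Their relatives Ccl7 and Cxcl2 rose by 4.0 and 4.38, and Csf2, a growth factor of myeloid cells, was at 6.54, 8.63 and 12.4 TPM in palmitic acid, against values of 0 to 0.13 TPM in untreated and oleic acid libraries. Lif, a cytokine of the interleukin 6 family, rose by 2.60 ± 0.17 (SE, adjusted p = 1.27e-11). The NF-kB subunits Nfkb2 and Relb and the inhibitors Nfkbia and Tnfaip3, which NF-kB itself induces, rose by 1.91, 2.37, 2.0 and 2.86. Il6 reached 3.37 to 4.04 TPM in palmitic acid and 0.44 to 0.92 TPM in untreated libraries. Tnf, at 1.67 to 2.0 TPM in palmitic acid and 0.17 to 0.89 TPM in untreated cells, and Icam1, with a difference of 0.00, did not pass. Ptgs2, the inducible enzyme of prostaglandin synthesis, was at 86.5, 108 and 117 TPM in palmitic acid, 1.42, 0.91 and 1.58 TPM in oleic acid, and 5.83, 4.66 and 4.94 TPM in untreated cells, so that it was above untreated in palmitic acid and below it in oleic acid.

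Microglia markers moved with these genes. Of 20 markers 14 were higher, 3 lower and 3 did not pass, and their summed level was 1222 to 1387 TPM in palmitic acid, 974 to 1106 TPM in oleic acid and 525 to 593 TPM in untreated libraries. In bulk RNA, fewer or more cells of a type and less or more RNA per cell cannot be told apart. Tyrobp, a signalling adaptor of myeloid cells, was at 233, 199.7 and 232 TPM in palmitic acid and 60.7, 69.1 and 68.7 TPM in untreated cells, and Fcgr3, an immunoglobulin receptor, at 52.8, 49.6 and 55.6 TPM, against 12.5, 15 and 13.3 TPM. The homeostatic markers Tmem119 (1.80, 1.22 and 1.54 TPM in palmitic acid, 9.39, 10.2 and 8.73 TPM in untreated), P2ry12 and Cx3cr1 fell, and Aif1 was at 2.82 to 5.23 TPM, against 3.52 to 5.61 TPM. No microglia marker was at 0 in any library of either group. The summed level in oleic acid was also above that in untreated cells, while Cxcl1 and Ccl2 there were not. The part of microglia in the rise of the inflammatory genes was not tested.

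Immediate early genes, the first transcription factors that growth factors and stress induce, were higher in 23 of 25 cases with a median of 1.81, none was lower, and Npas4 and Nr4a3 did not pass. Against oleic acid 14 were higher and 4 lower. Fosl1, a partner of JUN in the AP-1 factor, was at 115, 117 and 119.9 TPM in palmitic acid, 11.7, 6.72 and 8.47 TPM in oleic acid, and 2.73, 2.80 and 1.91 TPM in untreated cells. Myc averaged 138 TPM in palmitic acid, 11.4 TPM in oleic acid and 17.3 TPM in untreated cells. Nr4a1, an orphan nuclear receptor, was at 49.3, 45.7 and 47.9 TPM in palmitic acid, 97.7, 83.3 and 81.0 TPM in oleic acid, and 2.59, 3.31 and 2.60 TPM in untreated cells, so oleic acid libraries were the highest. Fos and Egr1 rose by 2.26 and 2.80 in palmitic acid over untreated.

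The ligands of the epidermal growth factor receptor and the feedback genes of its ERK pathway were higher in 17 of 22 cases and lower in 2, with a median of 1.10. Areg was at 98, 117 and 109 TPM in palmitic acid, 5.37, 4.97 and 5.49 TPM in oleic acid, and 0.22, 0.29 and 0.32 TPM in untreated cells. The 3 groups stood apart for this ligand, and its difference from untreated was 6.41 ± 0.12 (SE, adjusted p = 4.98e-20). The ligand Ereg rose by 4.26, and Hbegf, another, by 1.55. The phosphatase Dusp5 and the inhibitors Errfi1 and Spry2, which ERK induces and which restrain it, rose by 2.94, 2.40 and 1.44, and the receptor Egfr fell by 0.25.

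Reactive astrocyte genes split by class. Of the 13 genes shared by reactive states 6 were higher and 7 lower, with a median of -0.45. Gfap, the filament protein that defines reactive gliosis, was at 324, 269 and 245 TPM in palmitic acid, 559, 593 and 539.6 TPM in oleic acid, and 1080.2, 1206 and 1223 TPM in untreated astrocytes, lower in every palmitic acid library (-2.07 ± 0.08, SE, adjusted p = 2.53e-15). Timp1, an inhibitor of metalloproteinases, was at 823, 830.0 and 954 TPM in palmitic acid and 105, 103 and 95.7 TPM in untreated cells, and the hyaluronan receptor Cd44 and the siderophore binder Lcn2 rose by 2.30 and 2.96. Of 11 genes of the A2 class, found after ischemia, 9 were higher and 1 lower with a median of 1.98, among them Clcf1 (2.93), S100a10 (1.67), Tm4sf1 (2.07) and Sphk1 (3.04). Of 12 genes of the A1 class, found after endotoxin, 3 were higher and 4 lower, near the shares over all genes (26.8% and 33.1%). Their median was -0.25, and complement C3 fell by 0.96. Interferon response genes were higher in 11 of 24 cases and lower in 1, with a median of 0.58. Complement genes split, the C1q chains being among the 5 of 15 that rose and C4b among the 8 that fell.

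Genes of astrocyte identity and homeostasis fell. All 16 measured identity markers were lower in palmitic acid than in untreated astrocytes, with a median of -1.26, and 12 of the 16 were also lower than in oleic acid. Their summed level was 3261 to 3722 TPM in palmitic acid, 5494 to 6012 TPM in oleic acid and 7556 to 8647 TPM in untreated libraries. Each of the 16 was detected in every group. Aldoc, a glycolytic enzyme of astrocytes, was at 18.6, 14.9 and 15.1 TPM in palmitic acid, 41.3, 40.5 and 40.5 TPM in oleic acid, and 189, 212 and 204 TPM in untreated cells (-3.57 ± 0.08, adjusted p = 8.34e-19). Sox9, a transcription factor of astrocytes, and Gja1, the gap junction protein connexin 43, fell least, by 0.56 and 0.43.

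Among homeostatic genes 18 of 22 were lower and 2 higher, with a median of -1.51. Kcnj10, the Kir4.1 channel that clears potassium from around neurons, was at 11.1, 9.02 and 5.84 TPM in palmitic acid, 87.4, 76.1 and 84.8 TPM in oleic acid, and 199, 209.9 and 219 TPM in untreated astrocytes. This was the largest fall among genes expressed above the median, with a difference of -4.48 ± 0.13 (SE, adjusted p = 6.52e-17). The water channel Aqp4 was at 49.9, 46.5 and 37.8 TPM in palmitic acid, 106, 67.8 and 109 TPM in oleic acid, and 260.3, 254 and 292 TPM in untreated cells. Glul, which turns glutamate into glutamine, fell by 1.46 ± 0.05 (SE, adjusted p = 2.55e-16), and the glutamate transporters Slc1a3 and Slc1a2 by 0.99 and 1.03. Slc6a9, a glycine transporter that is also an ATF4 target on the stress list, rose by 2.59, and the phagocytic receptor Mertk by 1.26. Mfge8 and Megf10, which serve engulfment, did not pass. Of 18 secreted factors that act on synapses 10 were lower, the glypican Gpc4 and thrombospondin Thbs1 among them, and 5 were higher, Gdnf among them.

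**Figure D3:**
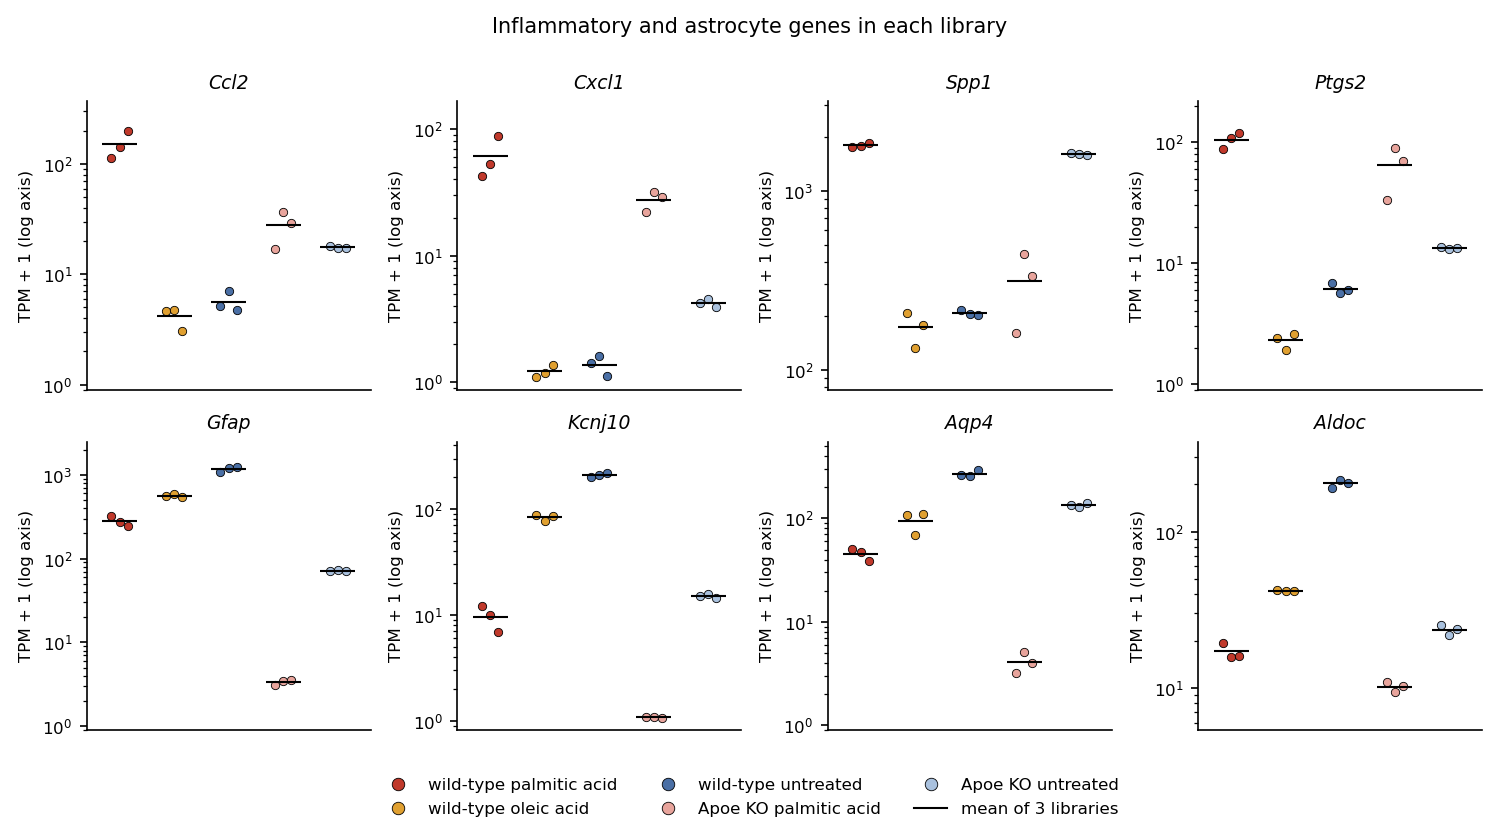
Level of 4 inflammatory genes (upper row) and 4 astrocyte genes (lower row) in each library, as TPM + 1 on a log axis, with wild-type palmitic acid, oleic acid and untreated libraries and then Apoe knockout palmitic acid and untreated libraries from left to right, and a bar at the mean of 3 libraries. In wild type, Ccl2, Cxcl1, Spp1 and Ptgs2 are highest in palmitic acid, and Gfap, Kcnj10, Aqp4 and Aldoc are lowest there.

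Markers of other cells were mostly lower. Mural and fibroblast markers fell in 12 of 14 cases, with a summed level of 3572 to 3964 TPM in palmitic acid, against 8187 to 8924 TPM in untreated libraries. Meningeal markers fell in 11 of 11 (9459 to 10881 TPM, against 12446 to 12877 TPM), choroid plexus and ependymal markers in 7 of 8, and oligodendrocyte lineage markers in 7 of 10. Kcnj13, a channel of the choroid plexus, was listed at 0 in all palmitic acid libraries. Neuron markers were split, 3 higher and 4 lower of 9, and the neuronal markers Rbfox3 and Snap25 were under the filter on low values. Endothelial markers were summed at 20.1 to 22.6 TPM in palmitic acid and 153 to 165 TPM in untreated libraries, most of it the organic anion transporter Slco1a4, and Cldn5 and Pecam1 were under the filter.

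Adenosine genes, which set how strongly astrocytes damp neuronal firing, were 3 higher and 6 lower of 11. The inhibitory receptor Adora1 was at 11.8, 10.8 and 8.0 TPM in palmitic acid, 30.3, 30.6 and 29.3 TPM in oleic acid, and 40.6, 48.9 and 47.9 TPM in untreated astrocytes. Adk, the kinase that clears adenosine, fell by 1.05, and the transporter Slc29a1 rose by 2.15. Adora2a, the excitatory receptor, was low throughout, at 0.52, 0.49 and 0.51 TPM in palmitic acid, 1.58, 1.78 and 1.55 TPM in oleic acid, and 0.18, 0.20 and 0.59 TPM in untreated cells, and its difference of 0.20 ± 0.14 from untreated did not pass.

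Lipid storage genes rose in part. Plin2, the coat protein of lipid droplets, was at 319, 313 and 349 TPM in palmitic acid, 179, 196 and 175 TPM in oleic acid, and 81.2, 87.1 and 84.6 TPM in untreated astrocytes. The 3 groups did not overlap, with differences of 1.94 ± 0.06 from untreated (SE, adjusted p = 4.75e-17) and 0.83 ± 0.06 from oleic acid (adjusted p = 5.32e-11). Hilpda, which inhibits triglyceride breakdown at droplets, rose by 1.29 over untreated and the lipase Mgll fell by 0.93. Over the 18 measured genes of droplets and lipolysis 8 were higher and 6 lower, with a median of -0.06. Of 15 genes of triglyceride synthesis 9 were higher and 2 lower. Those 2 were Gpam, which starts the pathway, and Lpin1, which makes its diacylglycerol, at -1.29 and -1.37, while the related Lpin3 rose by 1.73.

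Targets of the PPAR receptors, which sense fatty acids, were higher in 10 of 19 cases and lower in 5. Angptl4, an inhibitor of lipoprotein lipase, was at 20.1, 19.3 and 22.5 TPM in palmitic acid, 7.80, 8.54 and 9.32 TPM in oleic acid, and 0.94, 1.20 and 1.45 TPM in untreated cells (3.30 ± 0.15 over untreated, SE, adjusted p = 3.48e-14). Pdk4, a kinase that inhibits the pyruvate dehydrogenase of the mitochondrion, was at 33.8, 33.4 and 32.5 TPM in palmitic acid, 32.5, 23.7 and 29.1 TPM in oleic acid, and 8.68, 9.70 and 14 TPM in untreated cells. For Pdk4 the lowest palmitic acid library lay just above the highest oleic acid library, and the difference between the fatty acids, 0.23, did not pass. Ucp2, a mitochondrial carrier, rose by 3.44 and Vnn1, a pantetheinase, fell by 3.22.

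Enzymes of fatty acid oxidation set the 2 fatty acids apart. None of the 30 was higher in palmitic acid than in oleic acid and 28 were lower, with a median of -0.79, beside a median of -0.05 and 32.4% lower over all genes in that comparison. Cpt1a, the gate of fatty acids into mitochondria, was at 83.0, 84.2 and 74.9 TPM in palmitic acid, 150.2, 151 and 149 TPM in oleic acid, and 78.3, 83.7 and 79.8 TPM in untreated cells. Palmitic acid and untreated libraries overlapped, with a difference of 0.00 ± 0.08, and palmitic acid lay below oleic acid by 0.89 ± 0.08 on the log2 scale (SE, adjusted p = 2.46e-09). Acadvl, the dehydrogenase for long chains, was at 94.0, 88.6 and 88.9 TPM in palmitic acid, 173, 188 and 169 TPM in oleic acid, and 101.6, 101.3 and 106 TPM in untreated cells. Against untreated, 6 of the 30 were higher and 17 lower with a median of -0.28, and the medium-chain dehydrogenase Acadm fell furthest of these, to 44.1, 44.4 and 37.1 TPM in palmitic acid, against 98, 99.4 and 106 TPM. Only 2 of the 17 fell by at least 2-fold.

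Genes that make cholesterol were mostly lower. For cholesterol synthesis 19 of 26 genes were lower in palmitic acid than in untreated astrocytes and 3 were higher, with a median of -0.65, and 8 of the 19 were lower by at least 2-fold. Hmgcs1, which starts the pathway after acetyl-CoA, was at 49.5, 53.6 and 49.97 TPM in palmitic acid, 81.8, 50.9 and 77.5 TPM in oleic acid, and 243, 221 and 237 TPM in untreated cells. The palmitic acid libraries lay far below the untreated ones (-2.17 ± 0.20, SE, adjusted p = 5.11e-09), and the difference from oleic acid, -0.42 ± 0.20, did not pass. Sqle, squalene epoxidase, fell by 1.55 ± 0.06 (SE, adjusted p = 5.03e-15), and Acat2 and the regulator Insig1 by 1.21 and 1.07. Fdps, which makes farnesyl diphosphate, was at 162, 175 and 208 TPM in palmitic acid and 154, 147 and 130.3 TPM in untreated cells, a rise of 0.33 that was no longer called without the third palmitic acid or the third untreated library. The letters TCACNCCAC of a sterol response element were found in 1 of 18 promoters of the group, that of Hmgcs1, and in 1.06% of all promoters, and a second form, ATCACNCCA, in 1 of 18, that of Srebf2, and in 0.502% of all promoters.

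Fatty acid synthesis and desaturation fell in 17 of 26 cases and rose in 3, with a median of -0.43. Scd2, the main desaturase of brain, which turns saturated into monounsaturated fatty acids, was at 308, 312 and 276 TPM in palmitic acid, 388, 371 and 372 TPM in oleic acid, and 816, 878 and 839 TPM in untreated cells (-1.5 ± 0.07 from untreated, SE, adjusted p = 6.88e-14). Its paralog Scd1 averaged 80.1 TPM in palmitic acid and 75.8 TPM in untreated cells and did not pass. Srebf1, the transcription factor of the pathway, fell by 0.93, and the elongase Elovl7 rose by 1.86. For uptake and binding, 12 of 23 genes were lower, including the brain fatty acid binding protein Fabp7 (-1.70) and the carrier Mfsd2a (-1.68), and the activating enzyme Acsl4 was among the 6 higher (1.07).

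Lipid export genes were mixed, with 7 of 24 higher and 10 lower. Apoe was at 2462, 2225 and 2221 TPM in palmitic acid, 3203, 3438 and 3065 TPM in oleic acid, and 4234, 4787 and 5024 TPM in untreated cells, lowest in palmitic acid with no overlap (-1.02 ± 0.10 from untreated, SE, adjusted p = 6.53e-09). Clu, another lipid carrier, fell by 1.30 and the cholesterol exporter Abca1 by 0.74, while the receptor Vldlr, a known ATF4 target that is also on the stress list, rose by 2.20. Among 24 sphingolipid genes 10 rose and 6 fell. Sphk1, which makes sphingosine 1-phosphate, was at 50.4, 54.3 and 63.0 TPM in palmitic acid, 12.5, 9.70 and 7.89 TPM in oleic acid, and 5.81, 5.58 and 6.33 TPM in untreated cells, and the neutral sphingomyelinase Smpd3 rose by 2.33. The ceramide synthases split, Cers4 and Cers1 falling and Cers2 and Cers6 rising, and Sptlc1 and Sptlc2, subunits of the enzyme that joins palmitoyl-CoA to serine, did not pass.

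**Figure D4:**
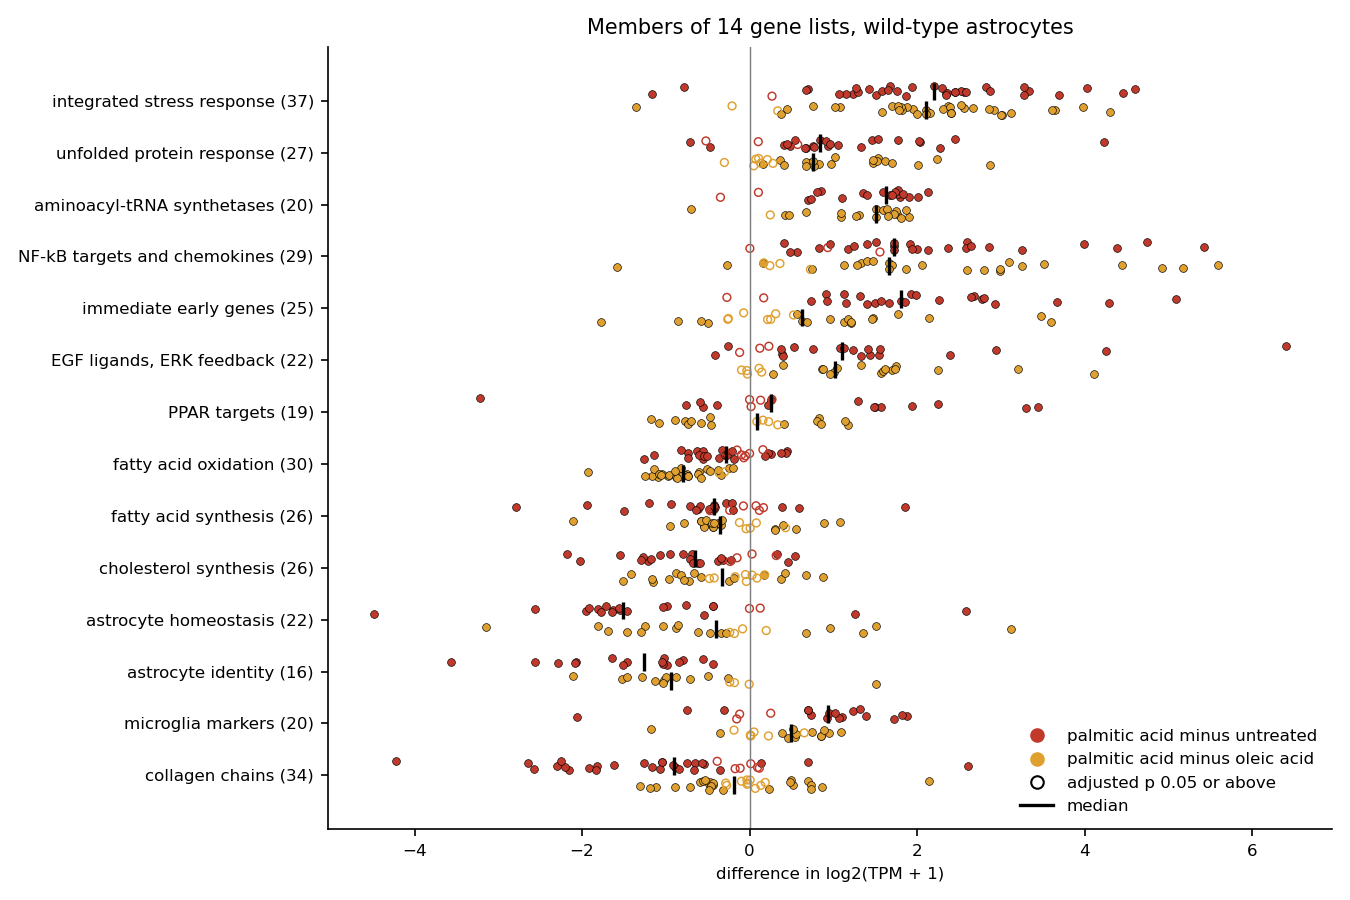
Difference in log2(TPM + 1) of the members of 14 gene lists, for palmitic acid minus untreated (red, upper row of each list) and palmitic acid minus oleic acid (orange, lower row), with the number of measured members in brackets. Filled points passed an adjusted p of 0.05, open points did not, and black bars mark medians, which lie at 2.20 for the integrated stress response and at -1.26 for astrocyte identity against untreated.

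Antioxidant genes rose more often than they fell, 17 against 5 of 30, with a median of 0.47. Hmox1, which degrades heme, was at 1856, 1949 and 2371 TPM in palmitic acid, 655, 668 and 619 TPM in oleic acid, and 164, 174 and 164 TPM in untreated cells. The autophagy adaptor Sqstm1, the reductase Txnrd1 and sulfiredoxin, Srxn1, rose by 2.27, 2.17 and 2.21. The metallothioneins Mt1, Mt2 and Mt3 fell by 1.51, 1.69 and 1.14, and palmitic acid was also below oleic acid for Mt1, at 636, 636 and 701 TPM against 2694, 3064 and 2646 TPM. Of 22 heat shock genes 9 were higher and 4 lower, led by Hspa1b and Hspa1a (3.20 and 2.92), whose near-identical sequences make their separate values uncertain. Lysosome and autophagy genes were 10 higher and 7 lower of 29 against untreated, and 4 higher and 21 lower against oleic acid.

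The mitochondrially encoded subunits were lower in 10 of 13 cases, with a median of -0.96. mt-Nd1 was at 1621, 1911 and 1664 TPM in palmitic acid, 1689, 1314 and 1661 TPM in oleic acid, and 3747, 3105 and 3641 TPM in untreated cells, so both fatty acid groups lay below untreated. mt-Co2, listed at 191, 135 and 73.3 TPM in palmitic acid and at 129.6, 0 and 56.3 TPM in untreated libraries, was called higher, but the call was lost without the first or the second palmitic acid library or without the second untreated library, and the difference of 2.67 became 0.53 without the untreated library listed at 0. Of 83 nuclear genes of the respiratory chain 27 were higher, 13 lower and 43 did not pass, with a median of 0.06. Glycolysis and pyruvate genes split evenly, 12 higher and 12 lower of 29, the hexokinase Hk2 rising by 1.5 and the pyruvate carboxylase Pcx falling by 2.34. Hypoxia genes were 5 higher and 9 lower of 21.

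Matrix genes fell. Of 34 collagen chains 25 were lower and 3 higher, with a median of -0.90, and Col3a1 stood at 5.67, 4.75 and 5.67 TPM in palmitic acid, 7.09, 5.44 and 4.21 TPM in oleic acid, and 119.7, 123 and 109.7 TPM in untreated cells. The mural and fibroblast markers given above mostly fell too, but that list itself holds Col1a1, Col1a2 and Col3a1. The part of such cells was not tested. Contractile genes of smooth muscle were lower in 14 of 16 cases, Acta2 and Actg2 among them. Among metalloproteinases and their inhibitors 8 of 22 were higher and 13 lower. Mmp3, which cleaves matrix proteins, was the largest of the 12 rises named by a rule that asks for a mean level above the median gene, with 86.8, 108 and 135 TPM in palmitic acid, 23.4, 25.7 and 24.2 TPM in oleic acid, and 2.16, 1.72 and 1.83 TPM in untreated cells (5.23 ± 0.18, SE, adjusted p = 4.85e-16). Timp3, an inhibitor, fell by 2.27. Cell cycle genes were 9 higher and 14 lower of 28, with a median of -0.12, the inhibitor Cdkn1a rising by 0.79 and the topoisomerase Top2a falling by 1.06.

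The other large rises were Rgs16, which shortens G protein signals (611, 628 and 669.9 TPM in palmitic acid, 23.9, 25.6 and 22.5 TPM in untreated), Plaur, the urokinase receptor, and Hmga1, a chromatin protein whose close copy in the mouse genome makes its value uncertain. They changed by 4.67, 4.18 and 4.35. The other large falls were Slco1a4 (-3.49), the extracellular protein gene Fndc1 (-3.34), the zinc transporter Slc39a12 (-3.33), the mitochondrial glutamate carrier Slc25a18 (-3.30), Nrep (-3.30) and Ccn5 (-3.23). For Rgs16 the oleic acid libraries, at 26.6 to 32.2 TPM, lay close to untreated, and for Slc39a12, at 68.3 to 79.7 TPM, between palmitic acid (13 to 16.9 TPM) and untreated (151 to 174 TPM).

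Set directly against oleic acid, palmitic acid gave 4163 genes higher (25.8%) and 5243 lower (32.4%), 58.2% in either direction. Both comparisons share the palmitic acid libraries and are therefore given only side by side. Among genes with a mean level above the median gene and no overlap between the fatty acids, the largest excesses over oleic acid were Ptgs2 (5.51), Ccl2 (5.18), Rgs16 (4.37), Areg (4.11), Trib3 (3.98) and Hmga2 (3.86), all of which were also higher than in untreated cells. By the same rule the largest deficits were Rarres1 (-3.84), En2 (-3.56), Wif1 (-3.36), Lcat (-3.16), Kcnj10 (-3.15) and Bicc1 (-2.72). Rarres1 was at 9.89, 6.48 and 6.73 TPM in palmitic acid, 120.0, 116 and 129 TPM in oleic acid, and 7.19, 7.36 and 7.53 TPM in untreated cells. En2, one of the regional genes above, and Wif1, an inhibitor of Wnt proteins, were above untreated in both fatty acid groups. Untreated knockout cells, given no fatty acid, were near or above the oleic acid level for 4 of these genes. They had 116 to 124 TPM of Rarres1, 108 to 112 of En2, 156 to 160 of Wif1 and 78.4 to 83.4 of Bicc1. Lcat and Kcnj10 were far below it there, at 8.34 to 9.35 and 13.4 to 14.8 TPM. The source of these levels was not tested.

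In Apoe knockout astrocytes Apoe was listed at 7.53, 7.66 and 5.36 TPM in palmitic acid and at 40.4, 47.1 and 43.5 TPM in untreated libraries, against 2221 to 5024 TPM in the wild-type libraries of both groups. There palmitic acid was followed by 3222 genes higher (19.9%) and 8946 lower (55.4%), 75.3% in either direction. Scaling of the libraries shifts this comparison: the median difference over all genes was -0.47 as deposited and -0.08 after division by a median-ratio factor per library, and 26.5% of the calls were higher as deposited and 47.9% after that scaling. After it 35.8% of all genes were higher and 38.9% lower in knockout. Counts of knockout members after scaling are to be read against these shares. The knockout palmitic acid libraries had 12057 to 12915 genes at 1 TPM or more, and factors of 0.605 to 0.83, where the wild-type palmitic acid and untreated libraries had factors of 0.946 to 1.045. The first of them stood furthest apart on both. No library is shared between the genotypes. After scaling, knockout palmitic acid minus untreated was -1.88 for Eif2s3y, -1.58 for Ddx3y, -1.14 for Kdm5d, -1.31 for Uty and -1.94 for Xist. As deposited, 16 of 20 imprinted growth genes were lower there and 1 higher, and after scaling 12 were lower and 4 higher. Treatment and make-up of the cultures cannot be told apart in knockout either. The change itself differed between genotypes at an adjusted p under 0.05 for 57.6% of all genes, with the wild-type change above the knockout change in 43.2% and below it in 14.3%. Of the genes higher in wild type 51.4% were also higher in knockout, which is 69% of those higher in knockout, and of the genes lower in wild type 80.6% were also lower, 48.1% of those lower in knockout. Across all genes the 2 changes had a Pearson correlation of 0.527, as a description, since genes are not independent.

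The integrated stress response was 34 higher and 2 lower of 37 in knockout as well, with a median of 1.82 as deposited and 2.38 after scaling. The wild-type change was above the knockout change in 13 genes and below it in 12 as deposited, and above it in 6 and below it in 16 after scaling. Trib3 and Chac1 changed by 4.71 and 4.39 there, and their difference between genotypes did not pass. Ddit3 rose to 870.4, 1034 and 962 TPM in knockout palmitic acid, against 39.0, 39.4 and 37.0 TPM in untreated knockout cells, and its change in wild type minus that in knockout was -0.91 (adjusted p = 1.22e-06). For the unfolded protein response the wild-type change was below the knockout change in 16 of 27 genes as deposited and in 25 after scaling. It was above the knockout change in none under either. Of all genes 14.3% were below as deposited and 28.8% after scaling. Sdf2l1 and Creld2, for example, rose by 4.12 and 3.52 in knockout. The astrocyte identity markers fell in 16 of 16 cases in knockout as deposited and in 14 after scaling, where 1 was higher.

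Sterol synthesis went the opposite way. In knockout 21 of 26 genes were higher with palmitic acid and 1 lower, with a median of 1.20. After scaling 23 were higher and none lower, where 35.8% of all genes were higher and 38.9% lower. The wild-type change was below the knockout change in 24 genes and above it in 1 as deposited, and below it in 25 and above it in none after scaling. Insig1, which holds back sterol synthesis when cholesterol is plentiful, was at 46.6, 47.8 and 49.8 TPM in wild-type palmitic acid and 106, 107 and 94.5 TPM in untreated wild-type cells, against 156, 233 and 206 TPM in knockout palmitic acid and 47.0, 45.7 and 43.2 TPM in untreated knockout cells. It fell in wild type and rose in knockout, and untreated wild-type cells stood above untreated knockout cells. The difference between genotypes was -3.16 for Insig1, -3.08 for Fdps and -3.01 for Mvd. For the fatty acid desaturase Scd2, which is not on the cholesterol synthesis list, it was -2.83.

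The NF-kB group differed the other way. In knockout 11 of 29 genes were higher and 7 lower with a median of 0.26. After scaling 15 were higher and 5 lower, where 35.8% of all genes were higher and 38.9% lower. The wild-type change was above the knockout change in 22 genes as deposited, where 43.2% of all genes were, and in 16 after scaling, where 26.4% were, and below it in none under either. Starting levels differed, with a summed level of 772 to 783 TPM in untreated wild-type and 1406 to 1425 TPM in untreated knockout cells. With palmitic acid the sum was 1738 to 2045 TPM in wild type and 1033 to 1244 TPM in knockout. Ccl2 was at 16, 35.8 and 28.5 TPM in knockout palmitic acid and 17.1, 16.4 and 16.2 TPM in untreated knockout cells, a difference of 0.59 that did not pass. Microglia markers moved with this contrast too. All 20 fell in knockout as deposited and 19 after scaling, and their sum there was 44.8 to 60.1 TPM in palmitic acid and 458 to 500.0 TPM in untreated libraries. C1qa, a complement chain of microglia, was at 6.41, 4.85 and 5.16 TPM in knockout palmitic acid and 67.0, 78.3 and 61.6 TPM in untreated knockout cells. Spp1, osteopontin, was at 1747, 1771 and 1841 TPM in wild-type palmitic acid and 214, 205 and 201 TPM in untreated wild-type cells, against 159, 445 and 333 TPM in knockout palmitic acid and 1613, 1591 and 1585 TPM in untreated knockout cells. The part of microglia in the difference between genotypes was not tested.

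**Figure D5:**
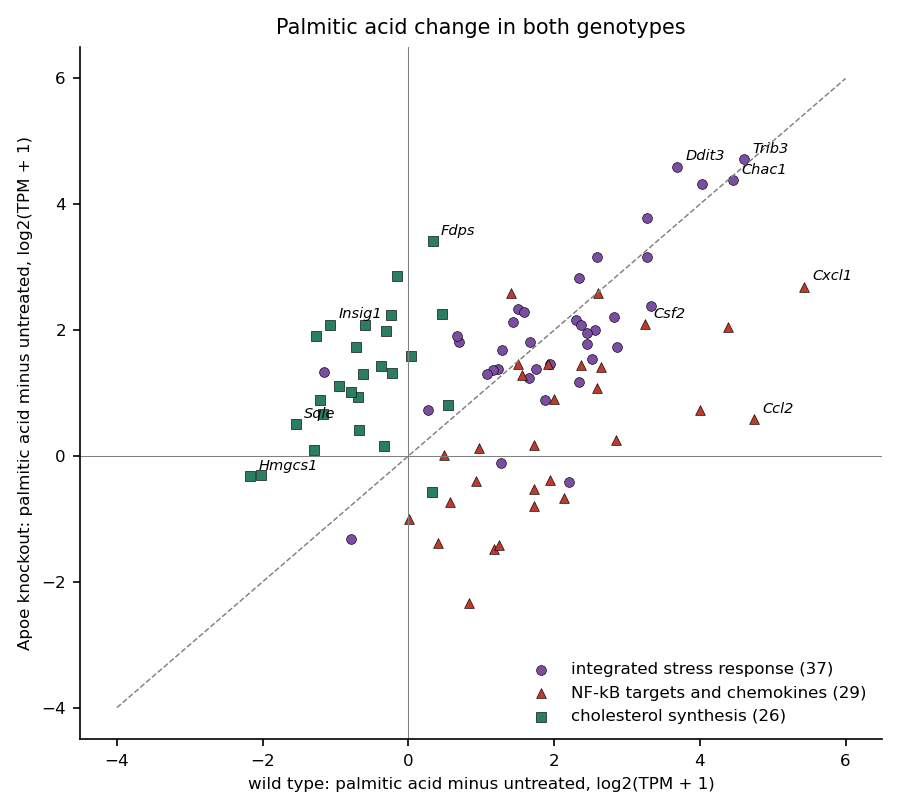
Difference in log2(TPM + 1) between palmitic acid and untreated libraries in wild type (horizontal axis) and in Apoe knockout (vertical axis) for the members of 3 gene lists, with a dashed line where both are equal. Of 37 integrated stress response genes 13 lie under the line and 12 over it past the test of the difference, of 29 NF-kB targets 22 lie under it and none over it, and of 26 cholesterol synthesis genes 1 lies under it and 24 over it, all from the TPM as deposited.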

How the data were processed

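RNA was sequenced from cultured mouse astrocytes. The deposited TPM values of the authors were made with HISAT2, StringTie and RSEM on mm10, per the submitters' processing notes, which give no versions used here. The unit is that of the table's columns. The RNA extraction described in the labels is that of brain tissue. The values hold no read counts, so no count test and no counting interval was possible.

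Genes with 1 TPM or more in at least 3 of 27 astrocyte libraries were kept, 16161 of 53700. A linear model of log2(TPM + 1) over 9 groups with a mean-variance trend was fitted with limma 3.58.1 in R 4.3.3, and p-values were adjusted by Benjamini-Hochberg with a threshold of 0.05. The fit was tested on simulated data. No 2 libraries of a group were near-identical, with 0.108% to 0.329% of genes at the same TPM.

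Lists and motifs were chosen with earlier results of these data known. Genes named are fixed lipid and astrocyte genes, the 12 largest rises and 12 largest falls among genes above the median level with groups that do not overlap, the 6 largest in each direction for the oleic acid and genotype comparisons, and up to 4 members of each list with the smallest p. Predicted, Y-linked and pseudogenes were left out of the ranked choices. Some genes the rule picks are not reported here. Other members named were chosen after their values were seen. Alternatives were another pseudocount, filter, scaling, fit and threshold, the replicate block and leaving out each library.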

Additional observations from a re-analysis of the deposited data

Results flagged for a closer look

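The 17 genes listed here were taken from the fixed genes and from those with the largest genotype differences. For each, the change with palmitic acid differed between genotypes by the test of the difference itself. In all, 179 named genes and 57.6% of all genes tested passed that test. The difference is given as the wild-type change minus the Apoe knockout change in log2(TPM + 1). This difference was positive for Spp1 (5.58), Rgs8 (5.37), Ncan (4.90), Vgf (4.86), mt-Co2 (4.85), C1qa (4.76), Gfap (2.35), Apoe (1.5), Pdk4 (0.79) and Angptl4 (0.55). It was negative for Igf2 (-3.71), Insig1 (-3.16), Fdps (-3.08), Mvd (-3.01), Scd2 (-2.83), Hmgcs1 (-1.86) and Plin2 (-0.21). Its sign does not say which change was larger in size. Gfap and Apoe fell further in knockout. Hmgcs1 fell in wild type, and its knockout change did not pass (-0.32 as deposited, 0.23 after median-ratio scaling).

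Rgs8, which shortens G protein signals, was at 73.7, 73.3 and 73.5 TPM in wild-type palmitic acid and 17.5, 18.7 and 16.2 TPM in untreated wild-type cells, against 3.11, 3.08 and 2.82 TPM in knockout palmitic acid and 40.8, 39.9 and 39.1 TPM in untreated knockout cells. Vgf, a neuropeptide precursor, rose by 2.83 in wild type and fell by 2.03 in knockout. Ncan, a matrix proteoglycan, did not pass in wild type (0.20) and fell by 4.70 in knockout. Gfap fell in both genotypes, by 2.07 in wild type and 4.42 in knockout, and Apoe in the knockout is the targeted gene. With median-ratio scaling the difference was 0.07 for Angptl4 and 0.35 for Pdk4, neither of which passed. That for Plin2 became -0.69. mt-Co2 is listed at 0 in 1 untreated wild-type library.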

How the results depend on the processing

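None of the called results recomputed under every alternative changed direction; outside them, 8 of 179 named genes called for the genotypes changed sign after median-ratio scaling, 1 of which, Hsd17b4, passed both ways (0.25 as deposited, -0.22 after). The largest move in the counts came with a 2-fold change as an added condition. It left 2724 genes in wild type (993 higher, 1731 lower), 5279 in knockout, 3947 for the difference between genotypes and 2361 against oleic acid, and 12 lists in place of 33 with most of their members called in one direction, since fewer genes can pass by construction. The other settings gave 9259 to 10220 genes in wild type. Leaving out 1 library gave 8824 to 9165 genes in wild type (3999 to 4118 higher, 4746 to 5092 lower), 11442 to 12074 in knockout, 8571 to 9846 for the genotypes, 8573 to 8948 against oleic acid and 31 to 32 lists. With the replicate number as a block 9544 genes were called in wild type, 12116 in knockout, 9174 for the genotypes and 9276 against oleic acid. Deviations from the group means of same-numbered palmitic acid and untreated wild-type libraries correlated at -0.046, -0.107 and -0.042, and none best with its own number. With 3 libraries per group this cannot show whether same-numbered libraries shared a culture or day. Scaling moved the share of calls that were higher to 47.9% from 26.5% in knockout, and to 47.8% from 75.1% for the genotypes. mt-Co2 and Fdps lost their wild-type call without single libraries, and Ncan and Adora2a gained one. For the genotypes, Angptl4, Pdk4, Plin2 and mt-Co2 lost their call in at least 1 setting; the cause was not tested. The files hold no counts, so what depth limits is unknown.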

Other observations

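Enzymes of prostaglandin signalling split in wild-type astrocytes. Of 18 genes 7 were higher and 8 lower in palmitic acid than in untreated cells. Ptgs2 and the phospholipase Pla2g4a, which frees arachidonic acid, rose by 4.09 and 1.24. The terminal synthases Ptges and Ptgis fell by 1.54 and 2.64, and Hpgd, which inactivates prostaglandins, fell by 1.88. Calcium-binding S100 proteins and annexins were 9 higher and 4 lower of 17, with S100a4 and S100a6 rising by 1.36 and 1.24 and S100b, a marker of astrocytes, falling by 0.84.

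Glucocorticoid-induced genes were 10 higher and 4 lower of 16. Their summed level was 3079 to 3276 TPM in palmitic acid and 4936 to 5594 TPM in untreated libraries. Tsc22d3 and Klf9, direct targets of the receptor, did not pass, at -0.13 and -0.03. The part of the receptor was not tested. Of 29 matrix, elastic fibre and TGF-beta induced genes 21 were lower and 7 higher, with a median of -1.0. Elastin, Eln, and fibulin 5, Fbln5, fell by 2.79 and 2.67, and Tgfb1, a cytokine that drives matrix deposition, rose by 1.70.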
